A study of Mus musculus with 9 samples.

Results

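Conventional dendritic cell (DC) identity genes were followed through RNA sequencing of mouse bone marrow-derived dendritic cells (BMDCs). The set has 10 genes, taken as the rows of the deposited gene count table that bear the names Zbtb46, Flt3, Batf3, Id2, Clec9a, Clec10a, Cd209a, Mgl2, Dpp4 and Cd24a, out of 57238 entries in all. All 10 were found once each in the table, and all are annotated as protein coding. BMDCs came from wildtype C57BL/6 bone marrow grown in GM-CSF at 20 ng/ml, with 6 culture days given in the labels, and this background and culture were shared by every group. The CTR group was left without exosomes. The other groups were exposed over 24 h, the NE-treated group to exosomes shed by NIH-3T3 fibroblasts, a mouse line that is not cancerous, and the TDE-treated group to those shed by tumor cells (TDEs). Each group had 3 libraries. The labels do not name the tumor line and do not say whether the libraries came from separate mice or cultures, so p-values measure only the spread between these libraries. The study's methods state that RNA came from purified BMDCs and do not say how they were purified.

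Conventional DCs (cDCs) take up antigen and present it to T cells, and they arise from bone marrow progenitors under the cytokine FLT3 ligand. Type 1 cDCs depend on the transcription factors BATF3 and ID2, carry CLEC9A and CD24, and excel at cross-presentation to CD8+ T cells, while type 2 cDCs and monocyte-derived DCs carry C-type lectins such as CLEC10A, MGL2 and CD209a. GM-CSF culture of bone marrow is known to give a mixture of DC-like and macrophage-like cells, with granulocytes among them.

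The libraries held between 17469782 and 21092943 estimated reads, so the floor of 3 reads used here corresponded to between 0.142 and 0.172 CPM of these totals. Levels of genes below are in CPM relative to the library size as scaled by the TMM method of edgeR. CTR replicate 1 stood apart: its log-scale profile had a mean correlation of 0.887 with the other CTR libraries, whereas the lowest correlation among the other 8 libraries was 0.958. The summed level of 13 neutrophil markers was 29636 CPM in that library against 10329 and 7958 CPM in CTR replicates 2 and 3, and that of 14 macrophage markers was 13297 CPM against 6688 and 6155 CPM. Results are therefore given with and without it. Itgax, which encodes the integrin CD11c found on DCs, was also read and was picked after the values were known. As a single gene read with no set criterion, Itgax does not test the DC label. Its level was 149 ± 10.5 CPM for CTR, 163 ± 20.4 CPM for NE-treated and 112 ± 4.45 CPM for TDE-treated BMDCs (mean ± SD, n = 3).

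In TDE-treated BMDCs, 3 surface molecules of the set, Mgl2, Dpp4 and Cd24a, were lower than in CTR and than in NE-treated BMDCs, and the transcription factor Id2 was higher than in both. Mgl2 showed the steepest difference of the 9 genes tested, with a level 17.2-fold lower than in CTR. Clec10a, the neighbor and close relative of Mgl2, fell against CTR as well. Flt3, the receptor for FLT3 ligand, stayed within the spread between libraries, and Cd209a was at or under 3 reads everywhere. No gene of the set passed the test between NE-treated and CTR BMDCs.

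**Figure D1:**
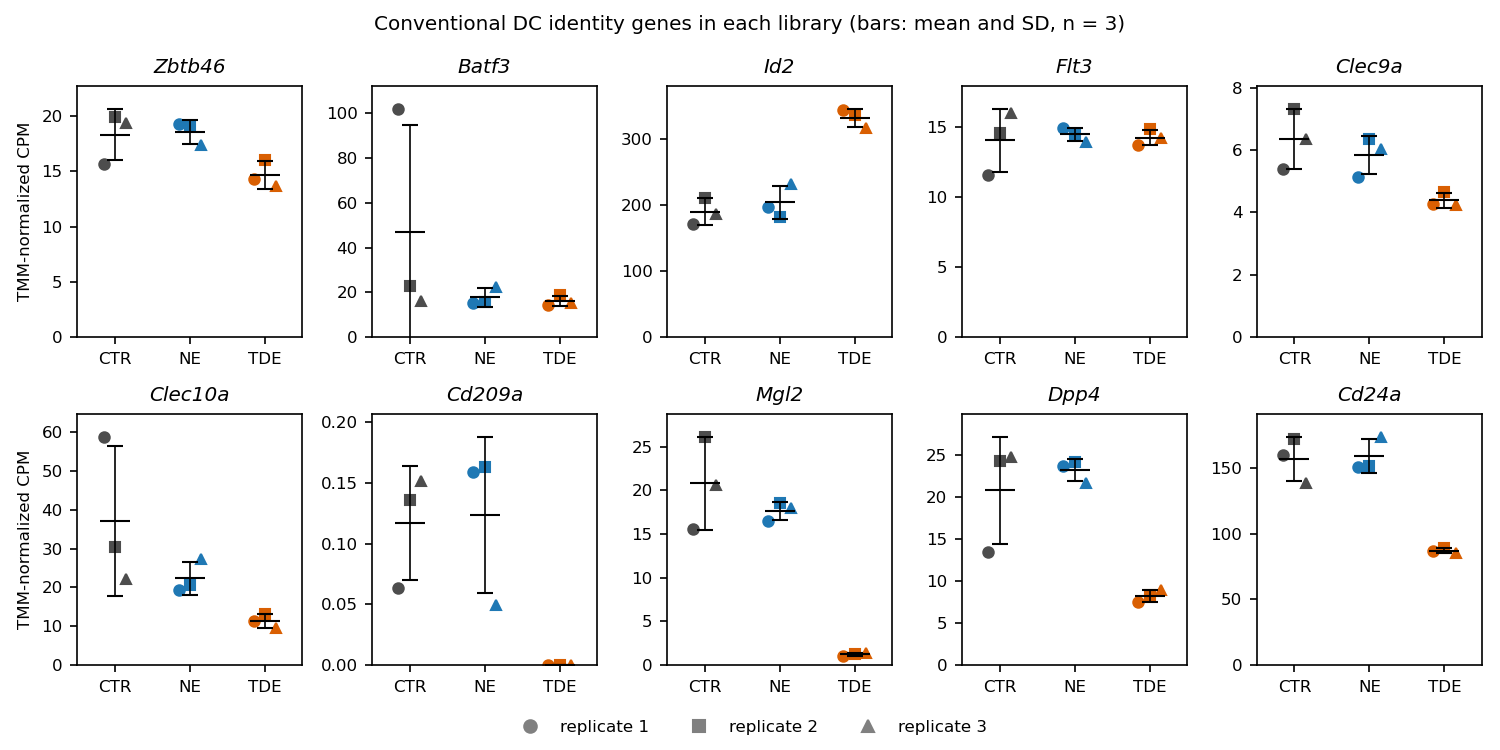
Level of each of the 10 genes in each library, in TMM-normalized CPM on a linear axis from 0, for CTR, NE-treated and TDE-treated BMDCs; symbols mark replicates, and bars mark the mean and SD of 3 libraries (the lower SD bar of Batf3 in CTR is cut at 0). TDE-treated libraries lay below all others for Mgl2, Dpp4, Cd24a, Clec9a and Clec10a and above all others for Id2, and CTR replicate 1 had a Batf3 level of 102 CPM. Cd209a was at or under 3 reads in each library.

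Between TDE-treated and CTR BMDCs, 5 of the 9 genes tested had an adjusted p under 0.05 in edgeR's quasi-likelihood test, 1 higher and 4 lower, against 16.9% of all 15028 genes tested (7.57% higher and 9.34% lower). The median log2 fold change of the 9 genes was -0.85, and that of all genes was -0.05. The count was 7 of 9 without CTR replicate 1, against 34.4% of all genes. Between TDE-treated and NE-treated BMDCs, 4 of 9 genes passed, 1 higher and 3 lower, against 13.9% of all genes (6.73% higher and 7.21% lower), and the medians were -0.41 for the set and -0.02 for all genes. This count was 7 of 9 without CTR replicate 1, against 40.7%. Both comparisons use the same TDE libraries. The set was chosen with earlier results of these data known, so its counts and medians beside those of all genes are a description and not a test. The libraries of the groups did not overlap for 6 of the 9 genes in TDE-treated against CTR BMDCs, where 44% of all genes did not overlap, and for 7 of 9 against NE-treated BMDCs, where 54.5% did not.

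**Figure D2:**
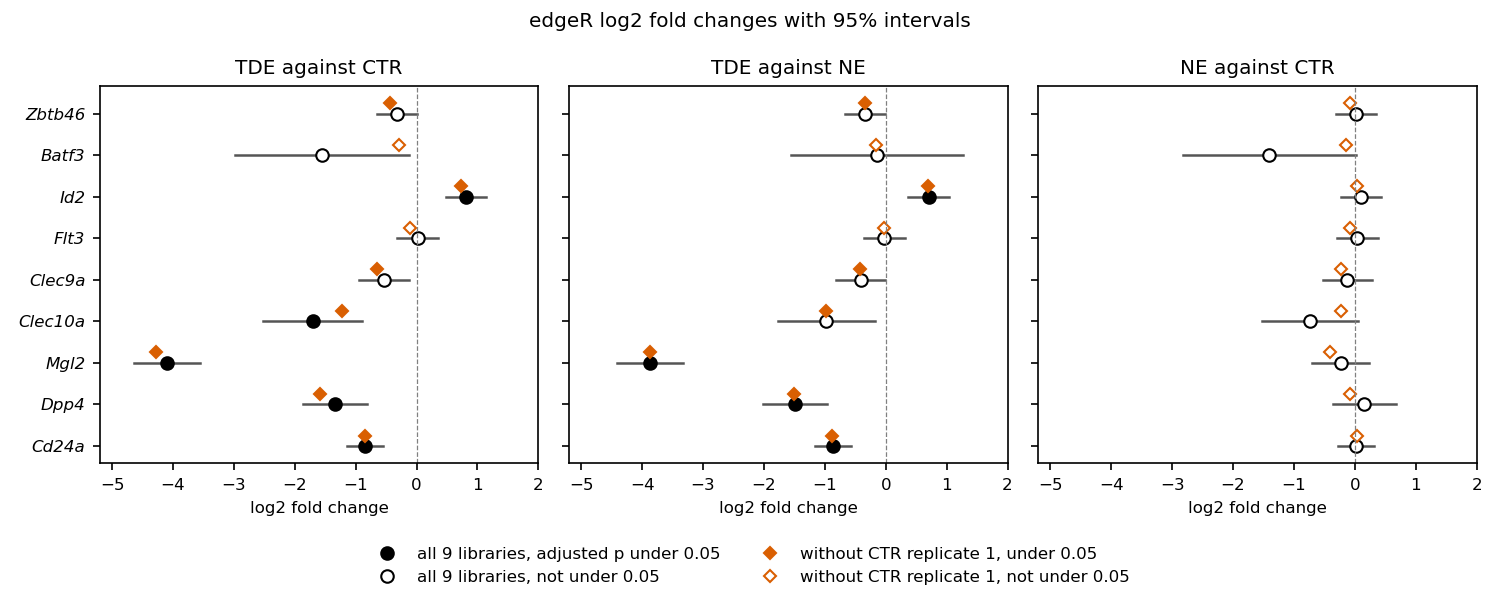
Log2 fold change of the 9 tested genes in each comparison by edgeR, with 95% intervals (black circles and lines, all 9 libraries) and the value without CTR replicate 1 (orange diamonds); filled symbols had an adjusted p under 0.05. Mgl2 lay at -4.10 against CTR and -3.87 against NE-treated BMDCs, and the interval of Batf3 was the widest of the 9 genes in the comparisons with CTR.

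Zbtb46 encodes a zinc finger repressor that marks the cDC lineage among myeloid cells (GRCm38 chr2:181387762-181459426, minus strand). Its level was 15.7, 19.9 and 19.4 CPM in CTR, 19.3, 19.1 and 17.4 CPM in NE-treated and 14.3, 16.0 and 13.7 CPM in TDE-treated BMDCs. All TDE-treated libraries were below all NE-treated libraries, but TDE replicate 2 was above CTR replicate 1. The log2 fold change was -0.32 ± 0.14 (SE) against CTR, with an adjusted p of 0.147, and -0.34 ± 0.14 against NE-treated BMDCs, with an adjusted p of 0.168. With CTR replicate 1 left out, both passed, at -0.43 with an adjusted p of 0.00918 and at -0.35 with an adjusted p of 0.0136.

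Batf3 encodes the AP-1 family factor needed for type 1 cDCs (chr1:191097847-191108945, plus strand). It reached 102 CPM in CTR replicate 1 but 23.0 and 16.1 CPM in the other CTR libraries, 15.1, 15.7 and 22.6 CPM in NE-treated and 14.4, 18.8 and 15.1 CPM in TDE-treated BMDCs. CTR replicate 1 alone was high, and the other 8 libraries overlapped between groups. TDE-treated against CTR BMDCs gave a log2 fold change of -1.55 ± 0.62 with an adjusted p of 0.121, and it was -0.29 with an adjusted p of 0.326 without that library. Without CTR replicate 3, which had the lowest CTR level, it was -1.95 with an adjusted p of 0.0361. Against NE-treated BMDCs it was -0.14 ± 0.61, with a 95% interval from -1.55 to 1.26. In CTR replicate 1 the summed level of 10 plasmacytoid DC markers was also high, at 455 CPM against 145 and 127 CPM in the other CTR libraries, together with the neutrophil and macrophage sums given above, and the part of these cells in the Batf3 value was not tested.

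Id2 encodes an inhibitor of E proteins required for cDC development (chr12:25093799-25097140, minus strand), and it was the gene of the set that rose. CTR libraries had 171, 212 and 187 CPM, NE-treated libraries 197, 183 and 233 CPM, and TDE-treated libraries 344, 337 and 318 CPM. Every TDE-treated library was above every other library. Id2 had a log2 fold change of 0.81 ± 0.15 against CTR, or 1.75-fold, with an adjusted p of 0.00782, and 0.70 ± 0.14 against NE-treated BMDCs, or 1.63-fold, with an adjusted p of 0.0145. These changes were 0.73 and 0.69 without CTR replicate 1. The call against CTR held in 17 of 17 alternative settings. Against NE-treated BMDCs it held in 9 of 17, with adjusted p-values up to 0.098, and leaving out NE replicate 1 or 2 or any TDE-treated library took it to between 0.0576 and 0.0785.

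Flt3 encodes the receptor tyrosine kinase through which FLT3 ligand drives cDC development (chr5:147330741-147400489, minus strand). The levels were 11.6, 14.6 and 16.0 CPM in CTR, 15.0, 14.5 and 13.97 CPM in NE-treated and 13.7, 14.8 and 14.2 CPM in TDE-treated BMDCs. The groups overlapped throughout. TDE-treated against CTR BMDCs gave a log2 fold change of 0.02 ± 0.15 with a 95% interval from -0.32 to 0.35, and TDE-treated against NE-treated BMDCs gave -0.02 ± 0.15 with an interval from -0.36 to 0.31, so that changes inside these intervals were not detectable. Without CTR replicate 1 the values were -0.11 and -0.03.

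Clec9a encodes a receptor for actin exposed on dead cells and marks type 1 cDCs and their progenitors (chr6:129408862-129424763, plus strand). It was low, with 5.39, 7.32 and 6.36 CPM in CTR, 5.15, 6.34 and 6.02 CPM in NE-treated and 4.27, 4.64 and 4.23 CPM in TDE-treated BMDCs. TDE-treated libraries were below all others. The log2 fold change was -0.54 ± 0.18 against CTR with an adjusted p of 0.0735, and -0.41 ± 0.18 against NE-treated BMDCs with an adjusted p of 0.182. Both passed without CTR replicate 1, at -0.65 with an adjusted p of 0.00816 and -0.42 with an adjusted p of 0.0332. Clec9a shares 184 exon bases on the same strand with Clec1b, and its estimated reads were fractional in 4 libraries, so part of its count may be split between these genes.

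Cd209a encodes a mouse relative of the adhesion lectin DC-SIGN and marks CD209a+ monocyte-derived and type 2 DCs (chr8:3743397-3748984, minus strand). It had 1, 3 and 3 reads in CTR, 3, 3 and 1 reads in NE-treated and 0, 0 and 0 reads in TDE-treated BMDCs. All libraries were at or under the floor, so the filter on low counts removed it and no fold change is given. The exact permutation test of the group means, two-sided, gave p = 0.1 for TDE-treated BMDCs against each other group, which is the smallest p that 3 libraries against 3 can give, and p = 0.8 for NE-treated against CTR BMDCs. The adjusted p in edgeR with no filter was 0.134 against CTR and 0.173 against NE-treated BMDCs. The defining gene of CD209a+ DCs was thus absent or near absent from these cultures in all groups. Of its paralogs, Cd209b, Cd209e and Cd209g were at 0 and Cd209f was at or under 3 reads in every library.

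Clec10a and Mgl2 encode macrophage galactose-type lectins that bind galactose and N-acetylgalactosamine sugars and mark type 2 and dermal DCs as well as some macrophages. They lie on the plus strand of chromosome 11, Mgl2 at chr11:70130329-70137550 and Clec10a at chr11:70156197-70170834, with 18646 bases between them. Their coding sequences, of 1143 and 924 bases in GENCODE vM21, matched at 823 of 910 aligned bases, or 90.4%. The longest identical run, shown because a read inside it cannot be placed on either gene, covers 183 bases in 3 exons, between chr11:70169822-70170189 in Clec10a and chr11:70136337-70136699 in Mgl2 (GRCm38, 5′ to 3′, introns left out).
Clec10a and Mgl2 shared run: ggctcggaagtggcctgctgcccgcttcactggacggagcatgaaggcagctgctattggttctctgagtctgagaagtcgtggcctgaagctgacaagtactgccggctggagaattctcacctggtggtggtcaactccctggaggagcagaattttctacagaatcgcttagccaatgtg
A window of 90 coding bases that starts at the end of this run, shown because it holds 8 differing bases, allows reads to be told apart. Capitals mark the bases that differ, at chr11:70170179-70170419 in Clec10a (in 2 exons) and chr11:70136689-70136778 in Mgl2 (in 1 exon).
Clec10a: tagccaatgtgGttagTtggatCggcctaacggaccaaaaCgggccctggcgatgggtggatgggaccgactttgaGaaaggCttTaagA
Mgl2: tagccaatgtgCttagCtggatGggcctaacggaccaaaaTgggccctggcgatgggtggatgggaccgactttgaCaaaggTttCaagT
The estimated reads of both genes were fractional in 6 libraries, and in each of these the fractions added up to a whole number within 0.011, so reads had been divided between them before deposit.

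Mgl2 had 246, 579 and 408 estimated reads in CTR, 311, 341 and 362 in NE-treated and 18, 23.1 and 26 in TDE-treated BMDCs. In CPM these were 15.6, 26.1 and 20.6 in CTR, 16.5, 18.5 and 18.0 in NE-treated and 0.998, 1.26 and 1.36 in TDE-treated BMDCs. All TDE-treated libraries were far below all others. Mgl2 had a log2 fold change of -4.10 ± 0.24 against CTR with an adjusted p of 6.98e-05, and -3.87 ± 0.24 against NE-treated BMDCs, a 14.6-fold lower level, with an adjusted p of 5.52e-05. Leaving out CTR replicate 1 moved these to -4.28 and -3.87. The call held in 17 of 17 alternatives in both comparisons, with log2 fold changes between -4.35 and -3.90 and between -3.96 and -3.75. In bulk RNA, fewer cells that carry a transcript and less of it per cell cannot be told apart.

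Clec10a had 58.9, 30.3 and 22.1 CPM in CTR, 19.2, 20.5 and 27.2 CPM in NE-treated and 11.4, 13.2 and 9.51 CPM in TDE-treated BMDCs. CTR replicate 1 was the highest library, and the TDE-treated libraries were the lowest without overlap. The log2 fold change against CTR was -1.71 ± 0.35 with an adjusted p of 0.0138. It was -1.22 with an adjusted p of 0.00152 without CTR replicate 1, and the call was lost without TDE replicate 1 (adjusted p of 0.0636), without TDE replicate 3 (0.0687) and in the fit to the CTR and TDE-treated libraries alone (0.0553). Against NE-treated BMDCs it was -0.98 ± 0.35 with an adjusted p of 0.109, and -0.99 with an adjusted p of 0.0025 without CTR replicate 1.

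Because the division of shared reads could move a count from Clec10a to Mgl2 or back, the reads of both were also summed, an alternative chosen after the fractions had been seen. The sums were 1175, 1251 and 846 reads in CTR, 673, 719 and 910 in NE-treated and 223, 264 and 208 in TDE-treated BMDCs, with the TDE-treated libraries below all others. The summed pair fell by 2.21 ± 0.23 on the log2 scale against CTR, with an adjusted p of 0.000684, and fell by 1.67 ± 0.22 against NE-treated BMDCs, with an adjusted p of 0.00208 (edgeR). With that library left out, the log2 fold changes were -1.99 and -1.68. NE-treated against CTR BMDCs gave -0.53 ± 0.22 with an adjusted p of 0.659.

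The share of Mgl2 in the reads of the pair was 20.9% (95% Wilson interval 18.7 to 23.4), 46.3% (43.5 to 49.1) and 48.2% (44.9 to 51.6) in CTR replicates 1, 2 and 3. It was 46.1% (42.5 to 49.99), 47.4% (43.8 to 51.1) and 39.8% (36.7 to 43.0) in NE-treated and 8.07% (5.17 to 12.4), 8.75% (5.88 to 12.7) and 12.5% (8.68 to 17.7) in TDE-treated BMDCs, where the intervals cover counting error only. The TDE-treated shares were below all others, and CTR replicate 1 lay between them and the remaining libraries. Mean shares were 38.5 ± 15.2% for CTR, 44.5 ± 4.08% for NE-treated and 9.78 ± 2.38% for TDE-treated BMDCs (SD, n = 3), and the exact permutation test, two-sided, gave p = 0.1 for TDE-treated BMDCs against each other group, the smallest that it can give, and p = 0.9 for NE-treated against CTR BMDCs.

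**Figure D3:**
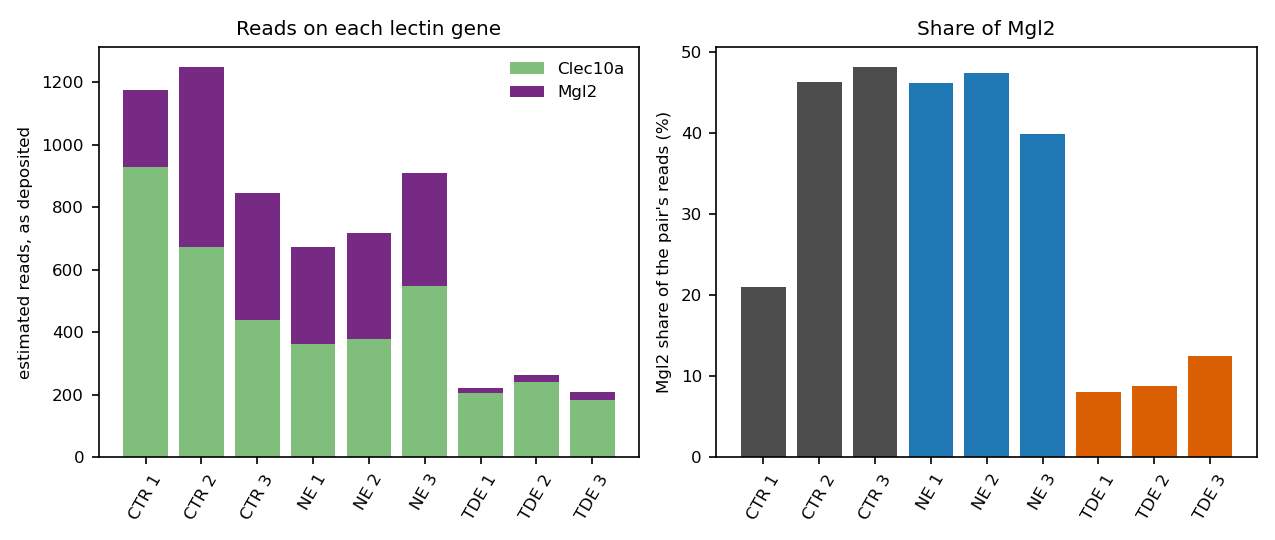
Left, estimated reads of Clec10a and Mgl2 in each library as deposited, stacked so that the bar height is the sum; right, the percent of the pair's reads on Mgl2, with bars from 0. The summed bars of the TDE-treated libraries reach 208 to 264 reads, below the lowest other library at 673, and their Mgl2 share is at most 12.5%.

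Dpp4 encodes the surface peptidase CD26, found on type 1 cDCs and used to tell cDCs from monocyte-derived cells (chr2:62330073-62412231, minus strand). Its level was 13.4, 24.2 and 24.7 CPM in CTR, 23.6, 24.1 and 21.7 CPM in NE-treated and 7.48, 8.30 and 8.88 CPM in TDE-treated BMDCs. TDE-treated libraries were below all others, and CTR replicate 1 was the lowest of the remaining libraries. The log2 fold change was -1.34 ± 0.23 against CTR, a 2.53-fold lower level, with an adjusted p of 0.00674, and -1.49 ± 0.23 against NE-treated BMDCs, 2.81-fold lower, with an adjusted p of 0.00418. Leaving out CTR replicate 1 gave -1.58 and -1.50. An antisense gene, Gm13561, shares 232 exon bases with Dpp4 on the opposite strand. The strand used in counting is not given in the sources used here, so its reads cannot be told apart there. The estimated reads of Dpp4 were fractional in 2 libraries, with fractions that complemented those of Gm13561, so part of its count may be split between these genes.

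Cd24a encodes a small glycosylphosphatidylinositol-anchored sialoprotein that is high on type 1 cDCs and also on granulocytes and B cells (chr10:43578284-43584265, plus strand). CTR libraries had 161, 172 and 139 CPM, NE-treated libraries 151, 152 and 174 CPM, and TDE-treated libraries 87.1, 89.4 and 85.6 CPM, with TDE-treated libraries below all others. For Cd24a the log2 fold change was -0.85 ± 0.13 against CTR, a 1.80-fold lower level, with an adjusted p of 0.00432, and -0.87 ± 0.13 against NE-treated BMDCs, 1.82-fold lower, with an adjusted p of 0.00372. The values were -0.84 and -0.87 when CTR replicate 1 was left out. Dpp4 and Cd24a held their calls in 17 of 17 alternatives in both comparisons.

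Markers of granulocytes, which carry Cd24a, and of other cells that a bone marrow culture can hold before purification moved with these differences. The summed level of 13 neutrophil markers, led by S100a9 and S100a8, ranged from 7958 to 29636 CPM in CTR, from 8375 to 11691 CPM in NE-treated and from 3848 to 4158 CPM in TDE-treated BMDCs, and 9 of the 13 fell against CTR while 0 rose. The sum of 8 eosinophil markers, led by Prg2 and Ear2, was 626 to 1671 CPM in CTR, 639 to 726 CPM in NE-treated and 115 to 144 CPM in TDE-treated BMDCs, and 8 of 8 fell against both other groups. Mast cell and basophil markers, led by Prss34 and Mcpt8, summed to 169.8 to 454 CPM, 187 to 265 CPM and 54.1 to 59.9 CPM in the same order, with 7 of 7 tested genes lower and Cma1 and Tpsab1 at or under 3 reads in every library. The genes that fell against CTR numbered 11 of 13, 8 of 8 and 7 of 7 without CTR replicate 1, and 1 neutrophil marker then rose. In that setting 34.4% of all genes passed in either direction. The part of these cells in the results for Cd24a and the rest of the set was not tested.

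Macrophage markers, to which Clec10a and Mgl2 also belong in some tissues, moved in both directions. For the counts in this paragraph, 16.9% of all genes passed against CTR in either direction, and 34.4% without CTR replicate 1. The macrophage sum, led by Apoe and Gpnmb, was 6155 to 13297 CPM in CTR, 6654 to 7541 CPM in NE-treated and 5873 to 6280 CPM in TDE-treated BMDCs. Of the 14 macrophage markers, 2 rose and 4 fell against CTR (3 and 10 without CTR replicate 1). B cell markers, led by Blnk and Cd79b, summed to 78.9 to 147 CPM, 73.8 to 81.7 CPM and 84.0 to 89.8 CPM. Against CTR, 0 of 8 tested genes were higher and 4 lower (2 and 4 without CTR replicate 1). The highest CTR sum was that of CTR replicate 1, and CTR replicates 2 and 3 had 83.6 and 78.9 CPM. T and NK cell markers, led by Cd8a and Nkg7, summed to at most 14 CPM in any library, with 3 of 5 tested genes lower and Ncr1 and Gzma at or under 3 reads throughout. Erythroid markers summed to at most 11.3 CPM, with 0 of 1 tested gene passing and Epb42 and Slc4a1 among those at or under 3 reads, and epithelial markers, led by Cdh1 and Krt8, to at most 12.9 CPM, with 1 of 2 lower. Fibroblast markers, led by Fn1 and Pdgfrb, summed to 4212 to 10464 CPM, 5679 to 10638 CPM and 2403 to 2778 CPM, nearly all of it Fn1. Of 7 tested genes, 2 were higher and 1 lower against CTR (2 and 2 without CTR replicate 1). Pdgfra was at or under 3 reads in every library.

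**Figure D4:**
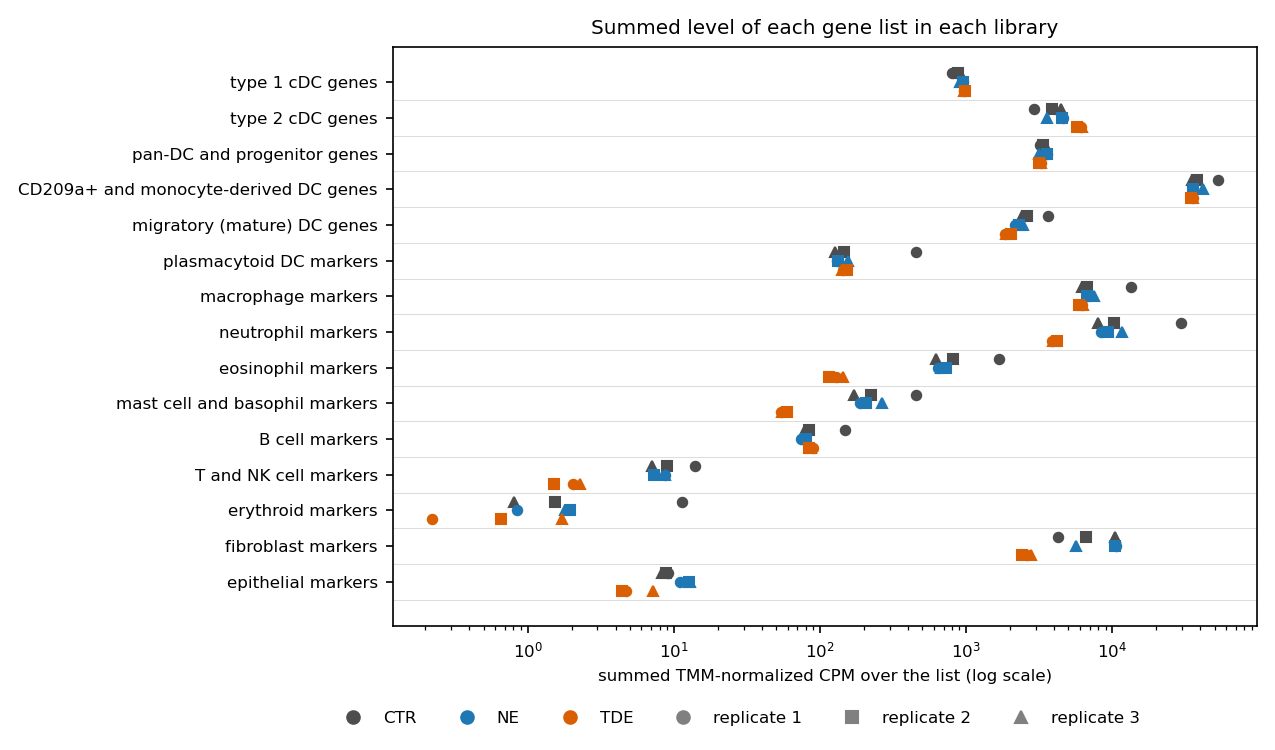
Summed level of each gene list in each library, in TMM-normalized CPM on a log axis, colored by group, with a symbol for each replicate. TDE-treated libraries lie below all others for the neutrophil, eosinophil, mast cell and basophil, T and NK cell, fibroblast, epithelial and migratory DC lists. They lie above all others for the type 1 and type 2 cDC lists, in sums where highly expressed genes weigh most. The median log2 fold change of the type 1 list against CTR was -0.26. CTR replicate 1 has the highest neutrophil sum, at 29636 CPM.

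NE-treated and CTR BMDCs served to ask what exosomes of a non-cancerous line did to the same genes. Apart from CTR replicate 1, these libraries did not divide by group. The fibroblast marker sum was 6644 CPM in CTR replicate 2 and 5679 CPM in NE replicate 3. It was 10464 CPM in CTR replicate 3 and 10638 and 10429 CPM in NE replicates 1 and 2. Batf3, Id2, Clec10a and Cd24a divided these libraries in the same way, with higher levels in CTR replicate 2 and NE replicate 3, and the other tested genes did not. The cause of this division was not tested. No gene of the set had an adjusted p under 0.05, as for 0% of all genes tested in edgeR, and 0 of the 9 had an unadjusted p under 0.05, against 487 of 15028 genes. DESeq2 called 3 genes overall and limma voom with sample quality weights called 18, none of them in the set. The median log2 fold change was 0.02 for the set and 0.0048 for all genes. Batf3 at -1.40 and Clec10a at -0.73 had the values furthest from 0, and both were moved by CTR replicate 1, since without it they were -0.14 and -0.23. The remaining 7 genes lay between -0.23 (Mgl2) and 0.15 (Dpp4). With that library left out, Mgl2 was furthest from 0, at -0.41, with an unadjusted p of 0.0104 in edgeR. Dpp4, Flt3 and Zbtb46 then changed sign, each to -0.08, and the adjusted p was 1 for each of the 9 genes. Mgl2 was -0.03 without CTR replicate 2.

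Levels of different genes were compared per kilobase of the deposited gene length, in CPM per kilobase. In CTR, Cd24a (212 ± 22.8) and Id2 (199 ± 21.4) were highest and overlapped, followed by Batf3 (58.8 ± 59.6), Clec10a (15.9 ± 8.28), Mgl2 (12.7 ± 3.23) and Zbtb46 (9.10 ± 1.16), each of which overlapped the next. Dpp4 (3.95 ± 1.21) and Flt3 (3.85 ± 0.615) overlapped each other, and Clec9a (1.93 ± 0.293) and Cd209a (0.0788 ± 0.0316) came last. This order rested in part on CTR replicate 1, without which Batf3 (20.2 and 28.7) no longer overlapped a neighbor, Mgl2 (12.6 and 16.0) came before Clec10a (9.48 and 13.0), and Dpp4 and Flt3 did not overlap. NE-treated BMDCs had the same leading genes, Cd24a (214 ± 17.6) and Id2 (213 ± 26.8), and Clec10a at 9.57 overlapped both Mgl2 at 10.8 and Zbtb46 at 9.23, which did not overlap each other. In TDE-treated BMDCs no neighbors in the order overlapped. There Id2 (347 ± 14.3) came before Cd24a (117 ± 2.57), Zbtb46 (7.29 ± 0.609) before Clec10a (4.86 ± 0.782), Flt3 (3.90 ± 0.152) before Dpp4 (1.56 ± 0.133), and Mgl2 (0.736 ± 0.114) stood ninth, after Clec9a (1.33 ± 0.0687).

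Other genes of the DC lineages gave the surroundings of these results, each list described by its counts in edgeR beside the shares of all genes given above. Of 14 tested type 1 cDC genes besides those of the set, 2 rose and 2 fell in TDE-treated against CTR BMDCs, and the list's median log2 fold change was -0.26. The adhesion molecule Cadm1 fell by 2.75 ± 0.51 and the small GTPase Rab7b by 0.56 ± 0.14 on the log2 scale, and the integrin Itga8 (2.29 ± 0.46) and the lysosomal enzyme Ppt1 (0.95 ± 0.11) rose. Cadm1 was under the floor of 3 reads in mean in TDE-treated BMDCs, at 0.128 ± 0.0862 CPM, so the size of its change is uncertain. Of 15 type 2 cDC genes, the fractalkine receptor Cx3cr1 rose by 0.85 ± 0.18 and Hepacam2 fell by 1.22 ± 0.23, and the median was 0.10. Without CTR replicate 1 the counts were 3 higher and 2 lower of 14, and 6 higher and 4 lower of 16. The summed level of the type 1 list was 968 to 986 CPM in TDE-treated BMDCs, against at most 904 CPM in CTR and 951 CPM in NE-treated BMDCs. Highly expressed genes weigh most in such a sum, so it does not describe the list as a whole. In mean, Ppt1 went from 85.4 CPM in CTR to 165 CPM in TDE-treated BMDCs, and Rab7b from 123 to 82.9 CPM. Cadm1, at 0.892 CPM in CTR, hardly counts in the sum. That of the type 2 list was 5762 to 6206 CPM, against at most 4459 and 4584 CPM.

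Pan-DC and progenitor genes numbered 23 tested, of which 5 rose and 2 fell against CTR, with a median log2 fold change of -0.05. The transcriptional repressors Bcl6 (1.13 ± 0.19) and Nfil3 (0.98 ± 0.15), the orphan receptor Gpr82 (1.21 ± 0.29) and the GM-CSF signal transducer Stat5a (0.85 ± 0.15) had the highest changes of those that passed. Tcf4 rose as well, at 0.53 ± 0.12. The genes that fell were Csf2ra and Csf2rb2, at -0.68 ± 0.17 and -0.49 ± 0.13, of which Csf2ra encodes the alpha chain of the GM-CSF receptor. With CTR replicate 1 left out, 8 rose and 7 fell.

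CD209a+ and monocyte-derived DC genes numbered 13 tested, of which 1 rose and 3 fell. Adgre1, which encodes the macrophage antigen F4/80, rose by 2.56 ± 0.30, from 378 ± 149 CPM in CTR to 2229 ± 102 CPM. The beta-glucan receptor Clec7a fell by 1.61 ± 0.12 on the log2 scale, and Cd209c fell by 1.06 ± 0.28. Without CTR replicate 1, 3 rose and 4 fell.

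Migratory, or mature, DC genes had 6 of 15 lower and 0 higher against CTR, with a median log2 fold change of -0.55. Among them were Nudt17 (-1.62 ± 0.33), the lymph node homing receptor Ccr7 (-1.43 ± 0.29), Laptm4b (-1.38 ± 0.24) and the maturation marker Cd83 (-1.07 ± 0.30). When CTR replicate 1 was left out, 9 of 15 fell, and Ccr7 was at -0.996. Plasmacytoid DC markers had 1 higher and 3 lower of 8, among them Siglech (-3.08 ± 0.48), Ly6d (-2.35 ± 0.57) and the transcription factor Spib (-0.99 ± 0.14) lower and Runx2 (0.58 ± 0.13) higher. Siglech was at 0.126 ± 0.0836 CPM in TDE-treated BMDCs, also under the floor in mean, so that the size of its change is uncertain.

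In the comparison with NE-treated BMDCs, the calls in the higher and the lower direction numbered 1 and 2 for type 1 cDC genes, 1 and 1 for type 2 cDC genes, 4 and 5 for pan-DC and progenitor genes, 1 and 2 for CD209a+ and monocyte-derived DC genes, 0 and 1 for migratory DC genes and 1 and 2 for plasmacytoid DC markers. Without CTR replicate 1 these were 3 and 5, 6 and 4, 8 and 7, 3 and 4, 1 and 9, and 1 and 4. Clec7a (-1.82 ± 0.13), Adgre1 (2.30 ± 0.30), Nfil3 (1.22 ± 0.15) and Cx3cr1 (1.15 ± 0.18) passed in this comparison too.

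**Figure D5:**
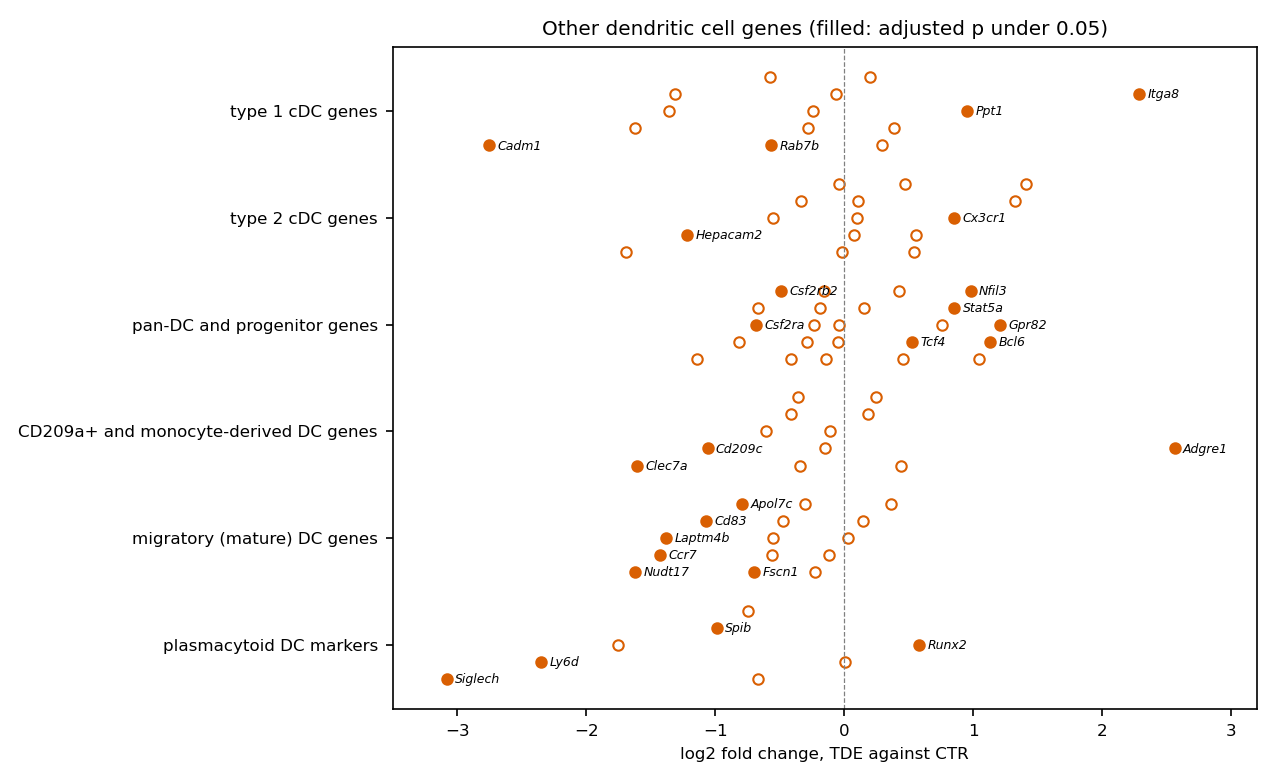
Log2 fold change of TDE-treated against CTR BMDCs for the tested genes of 6 further DC lists, apart from a gene not reported here (edgeR, all 9 libraries; vertical offsets separate the points). Filled circles had an adjusted p under 0.05 and are named; the migratory list has 6 filled circles, all below 0, and Adgre1 lies at 2.56.

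Promoter sequence was looked at because genes of the set moved in opposite directions. RefSeq promoters (GRCm38.p6) were found for 8 of the 10 genes, not for Clec10a or Cd24a. The 250 bases before the start used there were searched on both strands for letters that resemble known binding motifs. These starts differ in part from the GENCODE positions given above. The windows of Zbtb46 (chr2:181424389-181424638), Batf3 and Id2 lie inside the GENCODE gene, and that of Mgl2 reaches into it. Matches in these windows may therefore not lie before the GENCODE start. The letters GAGGAA, bound by PU.1, the master factor of myeloid cells, were present for Batf3, Dpp4 and Mgl2 and in 23.1% of 27025 promoters. TTCNNNGAA, bound by STAT factors, was present for Batf3 and in 7.18% of promoters. TGANTCA, bound by AP-1 factors, was present for Zbtb46 and in 6.87%, and GAAANNGAA, bound by IRF factors, for Dpp4 and in 7.16%. None of the motifs was found in these windows for Id2, Flt3, Clec9a or Cd209a. A match is a description of the letters and not of binding. Shown are the promoters of 2 genes that fell and of the gene that rose, 5′ to 3′ on the gene's own strand, with matches in capitals.
Mgl2, chr11:70130107-70130356, plus strand: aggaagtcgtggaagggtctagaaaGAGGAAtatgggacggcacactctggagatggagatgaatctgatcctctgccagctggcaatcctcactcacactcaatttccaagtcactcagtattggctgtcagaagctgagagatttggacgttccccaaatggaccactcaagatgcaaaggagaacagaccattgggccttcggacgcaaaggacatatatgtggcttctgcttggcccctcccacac
Dpp4, chr2:62412232-62412481, minus strand: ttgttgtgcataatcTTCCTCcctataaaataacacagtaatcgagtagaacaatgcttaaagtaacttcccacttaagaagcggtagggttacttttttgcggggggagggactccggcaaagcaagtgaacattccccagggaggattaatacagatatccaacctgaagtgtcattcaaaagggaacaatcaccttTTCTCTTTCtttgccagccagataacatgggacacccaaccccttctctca
Id2, chr12:25096093-25096342, minus strand: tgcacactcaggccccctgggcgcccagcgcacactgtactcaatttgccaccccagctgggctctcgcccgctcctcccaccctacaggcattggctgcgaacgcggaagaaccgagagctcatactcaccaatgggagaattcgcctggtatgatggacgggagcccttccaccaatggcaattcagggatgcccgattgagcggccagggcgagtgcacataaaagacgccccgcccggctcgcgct
The Mgl2 window holds 1 match, to PU.1, and the Id2 window holds none. The Dpp4 window holds a PU.1 match and an IRF match, both on the reverse strand.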

How the data were processed

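RNA of 9 BMDC libraries (3 CTR, 3 NE-treated, 3 TDE-treated) was analysed. The authors deposited estimated counts (expected counts) per gene, which they made from reads aligned with TopHat2 and did not normalize, and some of which are fractional. Per the submitters' processing notes, TopHat2 2.1.1, DESeq2 1.24.0 and R 3.3.1 were used upstream. The counting program, its strand setting and the genome build are not given in the sources used here. Identifiers matched GENCODE vM21 (GRCm38) for 55450 of 57238 entries, from which positions and coding sequences were taken.

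Counts were rounded to whole numbers, filtered with filterByExpr (15028 genes kept), scaled by TMM and fitted with 1 mean per group over all 9 libraries by edgeR 4.0.16 in R 4.3.3. Pairs of groups were compared by the quasi-likelihood F test, with Benjamini-Hochberg adjustment over all genes and a threshold of 0.05. The SE is the size of the log2 fold change over the square root of F. CPM floors are 3 reads. Exact permutation tests and Wilson intervals used scipy 1.17.1 in Python 3.11.15.

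The test was also run with DESeq2 1.42.0, and edgeR with its median-ratio factors, with library totals, unfiltered, with at least 10 counts in every library, on the 6 libraries of a pair, with a replicate block, and leaving out each library. After the data were seen, limma 3.58.1 voom with sample quality weights and the summed lectin pair were added.

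The members of the set and all gene lists were chosen with earlier results of these data known. All 10 members are named. From each other DC list, up to 4 genes with the highest absolute log2 fold change among those that passed in TDE-treated against CTR BMDCs are named, and from each list of another cell type up to 2 genes of highest mean CPM. Itgax, Tcf4, Csf2ra and Csf2rb2 and the genes named against NE-treated BMDCs were named after their values were seen. Some listed genes are counted but not reported here.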

Additional observations from a re-analysis of the deposited data

How the results depend on the processing

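The count of genes of the set with an adjusted p under 0.05 in TDE-treated against CTR BMDCs was 5 and ranged from 4 to 7 when each library was left out in turn, the 7 without CTR replicate 1, and it was 8 under voom with sample quality weights, which added Zbtb46, Batf3 and Clec9a. Against NE-treated BMDCs it was 4, with a range from 3 to 7 on leaving out libraries, the 7 again without CTR replicate 1, and it was 7 in the fit to those 6 libraries alone and 7 under voom. Without CTR replicate 1, the log2 fold changes against NE-treated BMDCs hardly moved, while their SE fell. Zbtb46 went from -0.34 ± 0.14 to -0.35 ± 0.09, Clec9a from -0.41 ± 0.18 to -0.42 ± 0.13 and Clec10a from -0.98 ± 0.35 to -0.99 ± 0.18. The fit shares 1 estimate of the spread over all 9 libraries, CTR replicate 1 among them. In the fit to the NE-treated and TDE-treated libraries alone, Zbtb46 was -0.34 ± 0.10, Clec9a -0.41 ± 0.14 and Clec10a -0.98 ± 0.17. Why CTR replicate 1 stood apart was not tested. For NE-treated against CTR BMDCs it was 0 in every setting run. Over the same settings the genes passing among all genes numbered from 1103 to 7886 (2541 as reported) and from 970 to 8311 (2095 as reported). Mgl2, Dpp4 and Cd24a passed in 17 of 17 alternatives in both comparisons with TDE-treated BMDCs.

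No source states a pairing of the libraries by replicate number, and whether they are paired is not known. The deviations of same-numbered libraries from their group means correlated between -0.69 and 0.28. With 3 libraries per group and CTR replicate 1 standing apart, these values cannot decide it. With the replicate block, 5 genes of the set passed against CTR, 3 against NE-treated BMDCs (Id2 at an adjusted p of 0.0628) and 0 between NE-treated and CTR BMDCs, and over all genes 1285, 1175 and 0 passed.

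Log2 fold changes that never passed and lay near 0 changed sign in some settings. In TDE-treated against CTR BMDCs, Flt3 was -0.00036 in the pair of groups alone, -0.062 under voom and from -0.111 to 0.125 on leaving out libraries. Against NE-treated BMDCs, Flt3 was 0.0015 in DESeq2 and from -0.049 to 0.0083 on leaving out libraries, and Batf3 was 0.0029 under voom and from -0.266 to 0.077. In NE-treated against CTR BMDCs, Cd24a was -0.0030 with median-ratio factors, -0.114 under voom and from -0.066 to 0.095 on leaving out libraries. Under voom, Zbtb46 was -0.051, Flt3 -0.013, Dpp4 -0.026 and Id2 -0.108 there, and on leaving out libraries they ranged from -0.084 to 0.088, from -0.081 to 0.147, from -0.082 to 0.299 and from -0.013 to 0.196. Scaling by library totals moved the median of all genes by 0.12 in that comparison, and the other scalings moved it by less. Depth limits Cd209a, at or under 3 reads in every library, and Mgl2 in TDE-treated BMDCs, which rests on 18 to 26 reads per library.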
